A study of Homo sapiens with 6 samples.

Results

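These are the rows of a gene-level RNA-Seq table that were higher in PC-3 cells with an inducible tristetraprolin (TTP) transgene than in cells without it. Below, "with TTP" refers to the group that carried the transgene. The 571 rows were chosen by their measured values. Each carried a gene symbol and a protein-coding RefSeq name, had no symbol of a small nucleolar, Cajal body or micro RNA, of a small RNA host gene or of the HIST histone clusters, reached at least 0.5 FPKM with and without TTP, and was at least 1.5-fold higher with TTP. FPKM is the number of sequenced fragments scaled to transcript length and to library size. They were 571 of 13814 rows that met every condition except the ratio, which is 4.13%, and of 406165 rows in all. For comparison, 3000 of the 13814 rows, or 21.7%, were at least 1.5-fold lower with TTP. This balance depended on the scaling of the groups, since 1150 rows were higher and 1708 lower when ratios were divided by the median ratio of rows with at least 1 FPKM, 1300 and 1560 with the same sum of FPKM in both groups, and 1924 and 1132 with the same upper quartile, where the balance turned. Since the ratio chose the 571 rows, that they were higher is not a result, and none of their ratios was tested.

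PC-3 is an established human cell line from a bone metastasis of a prostate adenocarcinoma. Both groups carried the pRetroX-Tet-On-Advanced retrovirus, which provides the doxycycline (Dox)-dependent transactivator rtTA2, and a second retrovirus that marks the cells with tdTomato. In the TTP-tdTom group this second virus also held TTP under the Dox-responsive promoter, and in the tdTom group it did not. Both groups, 3 samples each, received 300 ng/ml Dox for 4 hours. The study states that the transduced cells had been sorted for tdTomato by flow cytometry. The table holds 1 FPKM value per group and row, so that the spread between samples, the depth of each sample and the number of fragments behind a value are unknown. No difference below was compared with replicate error, and the authors' own test columns were not used.

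TTP, encoded by ZFP36, is a zinc finger protein that binds AU-rich elements in the 3′UTR of mRNAs, with the core UAUUUAU, and recruits enzymes that shorten the poly(A) tail, after which the mRNA is degraded. It is known for lowering the mRNAs of cytokines, chemokines and growth regulators. Its paralogs ZFP36L1 and ZFP36L2 bind the same element. The ZFP36 row was at 5.56 FPKM in the tdTom group and 5.54 with TTP, and whether fragments of the transgene were counted there was not analysed here. ZFP36L1 was at 40.3 and 23.3 FPKM on its own strand, and ZFP36L2 at 53.9 and 22.7. None of the family was among the 571 rows. The epithelial markers KRT8, KRT18, KRT19 and EPCAM lay between 15.1 and 98.2 FPKM in both groups, CDH1 was at 0.210 and 0.282, and the prostate factor HOXB13 was at 20.4 and 23.1. The 4 markers of other cells were PTPRC at 0.243 and 0.566 FPKM, PECAM1 at 0.483 and 0.793, CD3E at 0.134 and 0.352 and COL1A1 at 4.34 and 4.56. Their sum was 5.20 FPKM with tdTom and 6.27 with TTP-tdTom, most of it COL1A1. None of them was at 0, and their part in the results was not tested.

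Most of the 571 rows did not lie on the strand of the gene they were named for. The libraries were strand-specific, and the row numbers ran along each chromosome in 2 passes that correspond to the plus and the minus strand. Among rows that were the only row of their symbol, the strand read from this order matched the annotated strand of the gene in 14239 of 14300 cases, or 99.6%. By this reading, 367 of the 571 rows were on the strand opposite to the named gene, 199 were on the gene's own strand, and for 5 the strand of the gene was not found. The opposite-strand rows made up 64.8% of the 566 rows with a strand. They were a minority under 8 of 16 alternatives, at 34.5% with 1 row per symbol, 38.9% and 0% at floors of 1 and 5 FPKM, 0% without overlapping rows, 47.2% at the lower of the ratios tried, and 48.3%, 45.8% and 37.0% after scaling to the median ratio, the same sum and the same upper quartile. The 1-row setting kept the row with most RefSeq names, and 98.5% of all opposite-strand rows that met the other conditions had a single name. Leaving out overlapping rows removed nearly all opposite-strand rows. Both shares therefore follow in part from the filter itself. The 64.8% compares with 11.2% of the 13196 rows that met the other conditions and were not at least 1.5-fold higher. Among the rows at least 1.5-fold lower they were 390 of 2995. Seen from the strand, 19.8% of the 1850 opposite-strand rows and 1.67% of the 11912 own-strand rows were at least 1.5-fold higher, while 21.1% and 21.9% were at least 1.5-fold lower. By this reading the 367 values were not measured on the strand of the named gene, and such rows are described here as rows opposite to a gene.

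**Figure D1:**
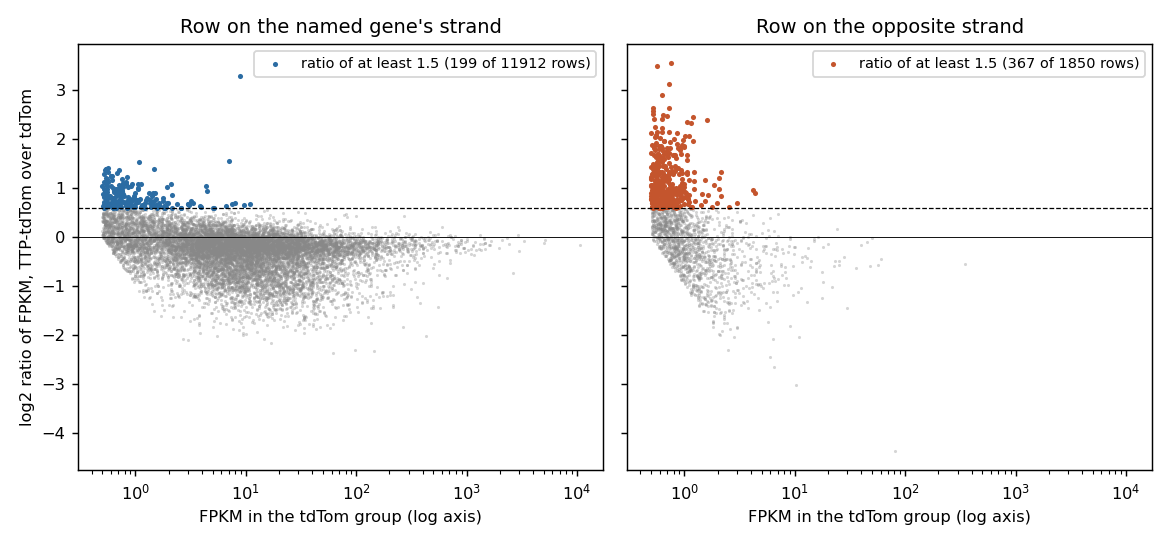
Each point is a row that met every condition except the ratio, with the FPKM of the tdTom group on a log x axis and the log2 ratio of FPKM, TTP-tdTom over tdTom, on the y axis, for own-strand rows (left) and opposite-strand rows (right). Coloured points lie at or above the dashed line at a ratio of 1.5, and they are 199 of 11912 rows on the left and 367 of 1850 on the right, nearly all at low FPKM.

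The rows were low in both groups. Their median was 0.696 FPKM in the tdTom group and 1.45 with TTP, whereas all 13814 rows had medians of 6.26 and 4.89. In the tdTom group 457 of the 571 rows, or 80.0%, were below 1 FPKM, compared with 15.1% of all rows. The tdTom value is the denominator of the ratio that chose the rows, so the choice itself favours low tdTom values. Of rows between 0.5 and 1 FPKM in the tdTom group 21.9% were in the rule, against 11.6% of rows with a mean of both groups in that range. Only 32 reached 2 FPKM, 9 reached 5 and 1 reached 10. Over all 13814 rows the median ratio was 0.863, or -0.21 on the log2 scale, and the rows of the rule are described relative to equal FPKM, not to this median. Their own median ratio was 1.85-fold, 228 rows were at least 2-fold higher and 79 at least 3-fold higher. Of those 79 rows, 78 were on the opposite strand and 1 was on the gene's own strand.

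Level and strand went together with the ratio. The mean FPKM of both groups was used here, since it treats the groups alike. On the gene's own strand, 6.93% of rows with a mean between 0.5 and 1 FPKM and 7.16% of those between 1 and 2 FPKM were at least 1.5-fold higher. This share was 1.23% between 2 and 5 FPKM and 0.102% at 10 FPKM or more. On the opposite strand the shares were 17.2%, 26.0% and 18.3% in the first 3 classes and 0 of 31 rows at 10 FPKM or more. Within each class below 5 FPKM, opposite-strand rows were therefore at least 1.5-fold higher more often than own-strand rows, and they were also at least 1.5-fold lower more often, at 112 of 893 rows against 79 of 1054 in the lowest class, 26.7% against 13.4% in the next and 33.7% against 20.6% in the third. The part of counting error in these shares was not tested, as the table holds no counts.

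**Figure D2:**
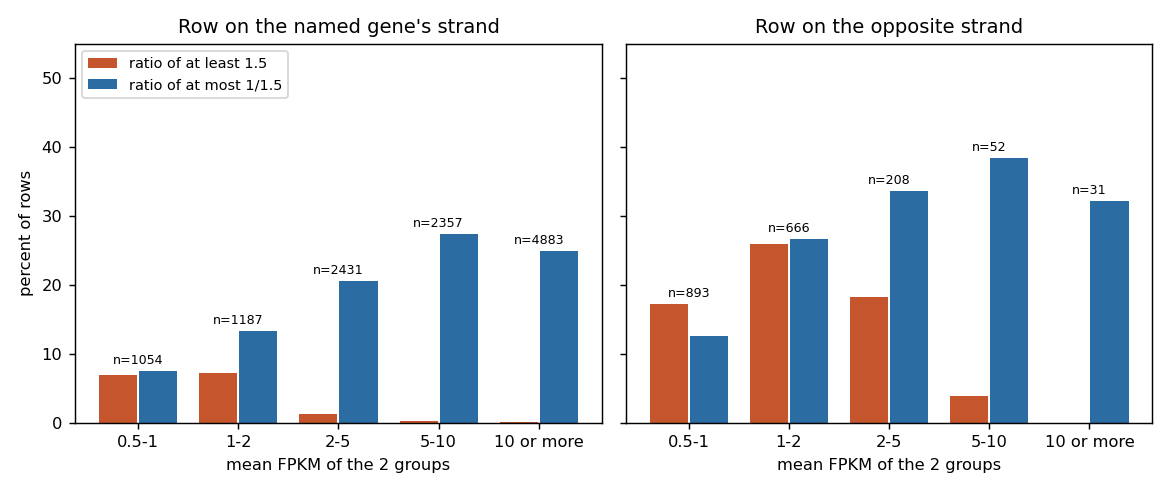
Bars give the percent of rows at least 1.5-fold higher (orange) or lower (blue) with TTP in 5 classes of the mean FPKM of both groups, with the number of rows above each pair, for own-strand rows (left) and opposite-strand rows (right). Higher rows on the gene's own strand fall from 6.93% in the lowest class to 0.102% in the highest.

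The 199 own-strand rows lie on the strand of the gene they name, and 4 of the 571 rows name more than 1 gene. SLC26A6, an anion exchanger of epithelial membranes, stood apart from all of them. Its row, which also carries the name of the neighbouring cadherin gene CELSR3 and spans chr3:48663156-48703232 (GRCh37, minus strand), was at 8.90 FPKM in the tdTom group and 86.7 with TTP, a 9.74-fold difference. The 2 genes share this row, so the value cannot be divided between them. It was the only own-strand row at least 3-fold higher. The next was MTERF (chr7:91461507-91510395), a mitochondrial transcription termination factor, at 7.08 and 20.6 FPKM or 2.91-fold. The coordinates given by the table are those of the whole assembled region that a row belongs to, which can hold several genes.

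The remaining own-strand rows of highest level differed by less. TRIB1, a pseudokinase that brings substrates to the COP1 ubiquitin ligase, was the highest row of all in the tdTom group, at 10.8 FPKM, and was at 17.1 with TTP, or 1.58-fold. RIPK4, a kinase of epidermal differentiation, was at 7.99 and 12.9 FPKM. CCDC71 was at 7.57 and 11.9 FPKM. These 3 ratios lie close to the threshold that chose the rows, between 1.58-fold and 1.61-fold.

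Further own-strand rows with at least 2 FPKM in the tdTom group included the following. LSM7, a subunit of the LSM ring that binds RNA 3′ ends, was at 4.47 FPKM with tdTom and 8.54 with TTP (1.91-fold). PARP11, a mono-ADP-ribosyltransferase, was at 4.35 and 8.95 FPKM (2.06-fold). FBXO32, the substrate-binding subunit of a ubiquitin ligase known from muscle atrophy, was at 2.40 and 3.78 FPKM on its own strand, while its opposite-strand rows went the other way, from 2.41 to 0.952 FPKM in one and from 0.802 to 0.601 in the other. The magnesium transport protein CNNM2 was at 2.11 and 4.45 FPKM.

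Several transcriptional regulators are given next. The zinc finger genes ZSCAN16, ZNF317 and ZBTB45 were at 9.67, 6.68 and 5.17 FPKM with tdTom and at 15.1, 10.3 and 7.80 with TTP. Of the Mediator complex, which links transcription factors to RNA polymerase II, MED26 was at 3.92 and 5.96 FPKM, MED18 at 3.07 and 4.80, and MED9 at 2.56 and 3.85. The Mediator genes were grouped after their values were seen, and 3 of their 33 own-strand rows were at least 1.5-fold higher and 10 at least 1.5-fold lower, against 1.67% and 21.9% of all own-strand rows, with a median log2 ratio of -0.22, as over all own-strand rows. POU2F2, a POU factor of lymphoid cells, was at 3.88 and 5.97 FPKM. E2F2, an activator of S phase genes, was at 1.48 and 2.27 FPKM, and ING4, a chromatin reader, at 1.47 and 3.83. TP63, the basal epithelial p53 relative, was at 0.832 and 1.31 FPKM.

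**Figure D3:**
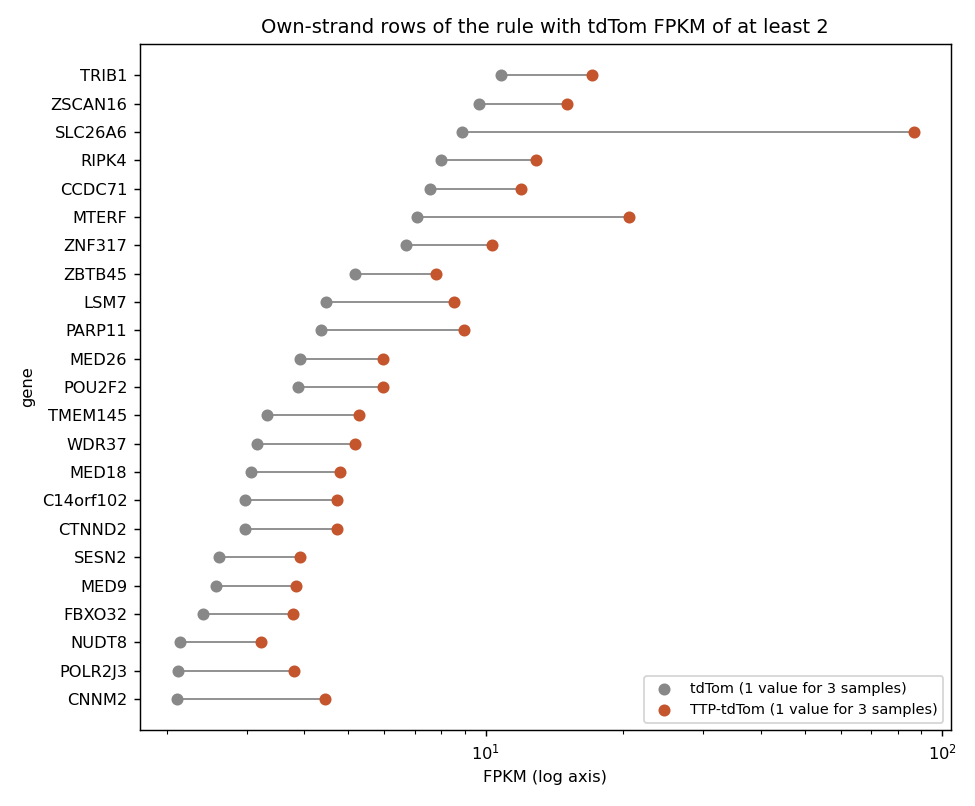
Each line joins the FPKM of the tdTom group (grey) and of the TTP-tdTom group (orange) for 23 of the 24 own-strand rows with at least 2 FPKM in the tdTom group, on a log x axis, with 1 value per group of 3 samples. SLC26A6 has the widest gap, from 8.90 to 86.7 FPKM, followed by MTERF, from 7.08 to 20.6.

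Stress genes of the gene lists and cell death genes picked after their values were seen are given next. SESN2, a stress-induced inhibitor of mTORC1, was at 2.61 FPKM with tdTom and 3.93 with TTP, just past the threshold at 1.51-fold. ATF3, a stress-induced bZIP factor, was at 0.773 and 1.27 FPKM. CASP9, the initiator caspase of the mitochondrial pathway, was at 0.898 and 1.49 FPKM, and the proapoptotic BH3-only genes BMF and HRK were at 0.796 and 1.40 and at 0.681 and 1.09. On the gene lists, SESN2 was the single row at least 1.5-fold higher among 16 rows of p53 targets, of which 3 were at least 1.5-fold lower. SESN2 and ATF3 were 2 of 19 rows of the unfolded protein and integrated stress responses, with 3 lower, and ATF3 was 1 of 24 rows of immediate early genes, with 6 lower. Over all rows, 4.13% were higher and 21.7% lower, and with counts this small nothing is read from the lists' shares.

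Signalling genes below 2 FPKM in the tdTom group included a peptide, a chemokine and a pair of receptors. EDN1, which encodes the vasoconstrictor endothelin-1, was at 0.753 FPKM with tdTom and 1.40 with TTP. PF4V1, a CXC chemokine, was at 0.549 and 1.24 FPKM. The atypical chemokine receptor CCRL2 was at 1.55 and 2.40 FPKM and the prostaglandin E receptor PTGER1 at 1.35 and 2.18. CXCL3, a chemokine, is named in the 571 rows only by an opposite-strand row at 0.846 and 1.69 FPKM, and its own-strand row was at 1.05 and 1.13.

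Further own-strand rows, picked after their values were seen, named developmental, lymphoid and olfactory genes. NANOG, a factor of pluripotent cells, was at 0.803 FPKM with tdTom and 1.29 with TTP, EOMES, a T-box factor, at 0.746 and 1.14, and ISL1, a LIM homeobox factor, at 0.607 and 1.36. CD52, a surface protein of lymphocytes, was at 0.542 and 1.40 FPKM. Olfactory receptors, a group drawn up after the values were seen, had 11 of 68 own-strand rows at least 1.5-fold higher and 6 at least 1.5-fold lower, with OR2H2 at 0.561 and 1.47 FPKM. Of these receptor rows 57 had a mean of both groups between 0.5 and 1 FPKM, with 6 higher, and 10 a mean between 1 and 2 FPKM, with 5 higher, against the 6.93% and 7.16% of all own-strand rows in those classes. SCAN domain zinc fingers, also grouped afterwards, had 3 of 16 own-strand rows higher and 0 lower, against 1.67% and 21.9% of all own-strand rows: ZSCAN16, ZSCAN18 (0.708 and 1.29 FPKM) and ZKSCAN4 (1.45 and 2.69).

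The remaining gene lists held few of the rows, and their counts stand against 4.13% higher and 21.7% lower over all rows. HES2, a bHLH repressor at 1.06 and 2.10 FPKM, was the only row at least 1.5-fold higher of 9 rows of ID, HES and HEY factors, and 3 were lower. KRT86, a hair keratin at 1.12 and 1.71 FPKM, was on its own strand and CLDN10 on the opposite one, which made 2 of 27 keratin and claudin rows, with 5 lower. Of 444 rows of ZNF genes 11 were higher and 55 lower, and of the 11 only ZNF317, ZNF334, ZNF573, ZNF583 and ZNF626 were on their own strand. Solute carriers had 17 of 273 rows higher and 61 lower, with 7 of the 17 on their own strand. Open reading frame names had 11 of 551 rows higher and 110 lower. Of 82 ribosomal protein rows 2 were higher, opposite to RPL31 and RPL3L, and 3 lower, and the own-strand row of RPL31 was at 1136 and 1004 FPKM. No row was at least 1.5-fold higher among 29 rows of interferon-stimulated genes, 4 of metallothioneins, 11 of histones outside the clusters, 28 of respiratory chain subunits, 25 of secreted and adhesion genes, 17 of TTP family members and partners, and 15 of reference transcripts. In those groups 7, 0, 2, 0, 2, 5 and 1 rows were at least 1.5-fold lower.

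Sites of 6 own-strand genes with a TTP element in the 3′UTR are shown, because the element is what TTP binds. The heptamer TATTTAT (the DNA letters of UAUUUAU, sense strand only) was sought in the longest 3′UTR of each gene's protein-coding transcripts in GENCODE 29. Of 24 own-strand rows with at least 2 FPKM in the tdTom group, 3 had it: POU2F2, C14orf102 and CNNM2. It was held by 37.2% of the 9692 other own-strand genes at that level, which include those lower with TTP. The first heptamer of each is printed below in capitals with 11 bases to each side, 5′ to 3′, and those of E2F2, ATF3 and EDN1 follow as the cell cycle, stress and peptide genes described above.
POU2F2: caggggctcagTATTTATttatttatata
C14orf102: attgtggttttTATTTATttatttattta
CNNM2: ttattttatatTATTTATtatgtacatat
E2F2: taatgcctttgTATTTATttcaggttgag
ATF3: aaaatattactTATTTATcctagtattcc
EDN1: ttttttatagaTATTTATattcaaacaat

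In POU2F2 and C14orf102 this heptamer starts at bases 4807 and 4756 of 3′UTRs of 5442 and 10480 bases. The first heptamer of E2F2 is at base 373 of 3450, that of ATF3 at base 1160 of 1222 and that of EDN1 at base 953 of 1127. Over all own-strand rows of the rule, 49 of 198 genes with a 3′UTR, or 24.7%, held the heptamer. Of 11631 own-strand genes that were not at least 1.5-fold higher, 4270, or 36.7%, held it. These contain the 2592 genes that were at least 1.5-fold lower, of which 1627, or 62.8%, held it. The lower genes thus raise the 36.7%, and genes past 1.5-fold in neither direction were not compared on their own. The median lengths of these 3′UTRs were 1206, 1422 and 2182 bases, so the shares move with length, and the part of length was not tested. Among own-strand rows under 2 FPKM in the tdTom group the shares were 26.4% for the rows of the rule and 34.3% for the others, lower rows included. The median coding length was 1202 bases in the own-strand rows of the rule and 1425 in the others. Promoters were not compared, since only 147 of the 199 own-strand rows, or 73.9%, had a RefSeq promoter sequence to look at.

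The largest ratios of the 571 rows were found opposite to genes. Of the 20 rows with the largest ratio 19 were on the opposite strand, as were 59 of the largest 60 and 96 of the largest 100. A row opposite to USP32, a ubiquitin-specific protease, was at 0.749 FPKM in the tdTom group and 8.68 with TTP (11.6-fold), while USP32 itself was at 6.14 and 4.29. A row opposite to IMMP2L, a mitochondrial inner membrane peptidase, was at 0.569 and 6.34 FPKM, another opposite-strand row was at 1.84 and 0.634, and IMMP2L itself was at 7.03 and 3.63. Opposite to AMT, an enzyme of glycine cleavage, a row was at 0.725 and 6.26 FPKM and another at 0.868 and 0, and AMT itself was at 1.95 and 2.12.

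Genes of the cell cycle, transcription and DNA replication were named in the same way. RB1, the retinoblastoma tumour suppressor, was at 35.4 FPKM with tdTom and 11.4 with TTP, and the row opposite to it was at 0.930 and 1.56. CDK12, a kinase of elongating RNA polymerase II, was at 15.3 and 11.4 FPKM against 0.525 and 2.96 in the opposite row. POLA2, a subunit of DNA polymerase alpha, was at 75.0 and 80.9 FPKM against 0.536 and 2.53. TIPRL, a regulator of PP2A-type phosphatases, was at 25.6 and 15.7 FPKM against 0.514 and 3.04. PAN2, a catalytic subunit of a poly(A) nuclease, was at 91.6 and 78.6 FPKM against 0.866 and 3.03. CHUK, a kinase of the NF-κB pathway, was at 4.39 and 2.61 FPKM against 0.560 and 0.849. In each of these genes the opposite-strand row was far below the gene's own row in the tdTom group. RB1, PAN2 and CHUK, like all other genes here that are on no gene list and not among the 20 largest ratios, the 10 highest tdTom values or the rows nearest to the threshold, were picked after their values were seen.

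**Figure D4:**
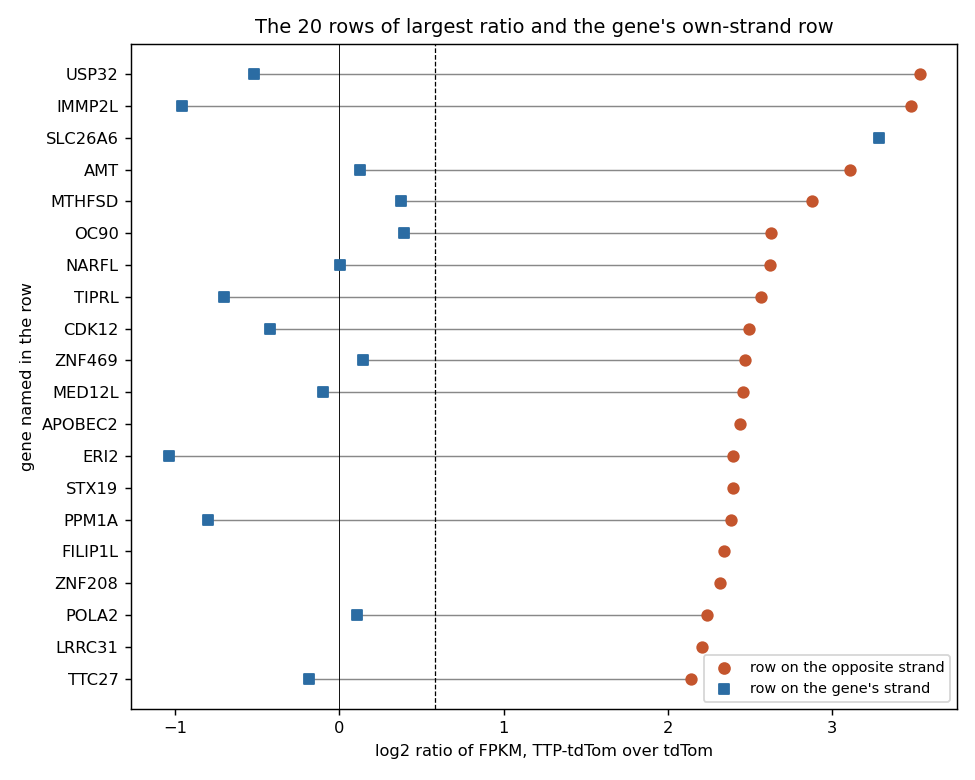
For the 20 rows of largest ratio, circles give the log2 ratio of FPKM, TTP-tdTom over tdTom, of the row opposite to the gene and squares that of the gene's own-strand row, where it reached 0.5 FPKM in both groups, with the ratio of 1.5 as a dashed line. SLC26A6 is the only row of the 20 on its own strand, and no own-strand row paired with a circle is past the dashed line.

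Over all 285 genes named by opposite-strand rows of the rule, 198 had an own-strand row with at least 0.5 FPKM in both groups. Those own-strand rows had a median of 4.53 FPKM with tdTom and 4.05 with TTP, against 0.661 in the opposite-strand rows with tdTom, and in 184 of the 198 the own-strand row was the higher one. The median log2 ratio of the 198 own-strand rows was -0.17, compared with -0.22 over all own-strand rows. At least 1.5-fold higher were 9 of them, at least 1.5-fold lower 29, and 160 lay between. Over all 11912 own-strand rows that met the other conditions 1.67% were higher and 21.9% lower. These 198 rows were not matched to them by level. The 9 include TG, thyroglobulin, at 0.834 and 1.94 FPKM, and PMP2, a fatty acid-binding protein of myelin, at 1.26 and 2.11. In the other 87 genes the own-strand row was under 0.5 FPKM in at least 1 group, with medians of 0.248 and 0.335 FPKM, and 55 of these rows were higher with TTP and 32 lower, with no threshold on the ratio. The same count was not made for other own-strand rows this low, so nothing is read from it.

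Opposite-strand rows of one gene could differ among themselves. Of the 285 genes, 189 had more than 1 opposite-strand row, and in 63 another such row with at least 0.5 FPKM in both groups was at least 1.5-fold lower with TTP, or a row was listed at 0 there only. When rows that fell under the floor with TTP were counted too, from at least 0.5 FPKM with tdTom, 96 of the 285 genes had a row at least 1.5-fold lower. Only the 189 genes with more than 1 opposite-strand row could have one. Of all 1850 opposite-strand rows that met the other conditions 21.1% were at least 1.5-fold lower. A gene with more rows has more occasions to hold one, and the part of row number was not tested. BDNF, a neurotrophin, had 11 opposite-strand rows. One was at 0.857 FPKM with tdTom and 3.70 with TTP, 2 were listed at 0 with TTP only, and the sum of the 11 was 9.62 and 6.97 FPKM. MAX, the dimerization partner of MYC, had 24 such rows, of which 5 were in the rule and 8 at least 1.5-fold lower, 5 of them with at least 0.5 FPKM in both groups, with sums of 36.8 and 34.6 FPKM, and its own-strand row was at 103 and 85.8. When FPKM was summed over all opposite-strand rows of a gene, 187 of the 285 genes were at least 1.5-fold higher and 246 were higher at all. These sums contain the rows chosen for being higher.

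The rows were not independent of one another. They had 461 distinct sets of printed coordinates, and 152 rows shared theirs with another row of the rule. The largest cluster was 31 rows at chr10:67677598-69455949 (GRCh37), named for the adhesion genes CTNNA3 and LRRTM3, with ratios from 1.58-fold to 3.73-fold. All 31 were on the opposite strand. This region held 170 rows of the table, of which 100 met every other condition, and 12 of those were at least 1.5-fold lower. CTNNA3 itself was at 3.82 and 4.86 FPKM and LRRTM3 at 0.788 and 1.03. LRRTM3 lies within CTNNA3 on the other strand, so that a row opposite to one of them is on the strand of the other. Of the 367 opposite-strand rows, 140 had another named gene on their strand at the same coordinates and 227 did not. Further clusters held 9 rows at chr3:150804676-151176497, with names that include MED12L, P2RY12, P2RY14 and IGSF10, and 8 rows at chr14:65380212-65569575, named for MAX, RAB15 and CHURC1-FNTB.

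Chromosomes contributed unequally to the count, in part through these clusters. On chromosome 10, 64 of 670 rows that met the other conditions, or 9.55%, were in the rule, and on chromosome 8, 52 of 595, or 8.74%. Chromosome 22 had 0 of 276 rows and the X chromosome 4 of 405. Counting own-strand rows alone, chromosome 10 had 8 of 455, or 1.76%, and chromosome 8 had 14 of 446, or 3.14%. Own-strand rows of the rule were the only row of their symbol in 126 of 199 cases, and opposite-strand rows in 0 of 367, against 81.8% and 1.41% of all such rows that met the other conditions. A single RefSeq name stood in 99.7% of the opposite-strand rows and in 61.3% of the own-strand rows of the rule, against 98.5% and 55.2% of all rows that met the other conditions.

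The rows nearest to the threshold showed no gap. Just inside it lay NDRG1 (opposite strand), KCTD16, BEST3, SCYL3 and PKHD1L1 (opposite strand), at most 0.0018 above a ratio of 1.5, with tdTom values from 0.523 to 1.55 FPKM. Just outside lay RAB6B, LIPT2, ASAP1 (opposite strand), ZSCAN20 and NADK (opposite strand), with ratios down to 0.0031 below 1.5 and tdTom values from 0.541 to 1.19 FPKM. NDRG1 itself, a growth arrest and hypoxia gene, was at 13.6 and 9.65 FPKM on its own strand.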

How the data were processed

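The authors sequenced RNA of 6 samples of PC-3 cells, 3 tdTom and 3 TTP-tdTom, with a strand-specific kit and 75-base paired-end reads. Per the labels and methods, TopHat2 2.0.13 aligned reads to Hs37D5 (GRCh37 with decoy sequence) and Cufflinks 2.2.1 assembled and compared transcripts. The FPKM values are those the authors deposited, 1 per group and assembled locus. Log2 fold changes, test statistics, p and q values of the authors' own comparison were not used. As no values per sample were in the table used here, the planned limma or edgeR fits were not run and no test was run here and no SD is given for any ratio. Ratios were computed as TTP-tdTom over tdTom without a pseudocount. Starts are counted from 1.

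The rows, gene lists and comparisons were chosen with earlier results of these data known, and the split by strand was chosen after seeing the data. Strand was read from the order of row numbers and compared with gene strands of GENCODE 29 and RefSeq by symbol or synonym. Genes were named from the TTP family, the 20 largest ratios and the 10 highest tdTom values. They were also named from the gene lists and the 5 rows on each side of the threshold. Not all of these genes are named in the text, and others were picked after their values were seen. A few genes of this rule and 1 marker are not reported here. The own-strand row of a gene is that with the highest FPKM. Alternatives were other floors, ratios, pseudocounts, scalings and exclusions of rows. Python 3.11.15, numpy 2.4.6, pandas 2.3.3 and matplotlib 3.10.9 were used, and the rule was tested on simulated data.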

Additional observations from a re-analysis of the deposited data

Results flagged for a closer look

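The floor of 0.5 FPKM in the tdTom group left out 62 rows named for protein-coding genes that reached at least 5 FPKM in the TTP-tdTom group. They lie outside the comparisons above. The number of all such rows under the floor, and their share on the opposite strand, were not counted. Of the 62 rows, 61 were on the strand opposite to the named gene and 53 were listed at 0 in the tdTom group. The highest were opposite to PTPRQ (listed at 0 with tdTom and at 10599 FPKM with TTP), C12orf59 (0 and 573 FPKM) and TRPC6 (0 and 526 FPKM). In the other direction, 20 rows were under 0.5 FPKM with TTP and at least 5 FPKM with tdTom, of which 18 were on the opposite strand and 15 were listed at 0. No test was run on these single values, and what lies behind a value listed at 0 was not tested.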

How the results depend on the processing

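No paired analysis was possible because the table holds 1 FPKM value per group, and for the same reason no replicate could be left out. The number of rows in the rule, 571 (4.13% of the rows that met the other conditions, median 0.696 FPKM with tdTom), depended on the floor. It was 1715 (9.80%, median 0.403 FPKM) at 0.25 FPKM, 114 (1.02%, 1.48 FPKM) at 1 FPKM and 9 (0.134%, 7.57 FPKM) at 5 FPKM. It was 1221 (8.84%) at the lower of the ratios tried, 228 (1.65%) at a ratio of 2, and 182 (1.32%) with a pseudocount of 1. Scaling moved all log2 ratios up by 0.24 (median ratio of rows with at least 1 FPKM), 0.28 (same sum) or 0.40 (same upper quartile), which gave 1150 (8.32%), 1300 (9.41%) and 1924 (13.9%) rows. With 1 row per symbol 298 rows (2.42%) were left, and without rows that overlap another named row 96 (1.40%). After seeing the data, own-strand rows alone gave 199 (1.67%) and opposite-strand rows alone 367 (19.8%). The share of rows on the opposite strand, 64.8%, was 38.9% at 1 FPKM, 0% at 5 FPKM, 48.3%, 45.8% and 37.0% after scaling to the median ratio, the same sum and the upper quartile, 47.2% at the lower of the ratios tried, 34.5% with 1 row per symbol and 0% without overlapping rows. Keeping 1 row per symbol and leaving out overlapping rows themselves remove a larger part of the opposite-strand than of the own-strand rows. In the alternatives that kept rows of both strands, the share at least 1.5-fold higher (or past the alternative ratio) was higher among opposite-strand than own-strand rows, except at 5 FPKM and without overlapping rows. For 86 named rows the alternatives gave 1224 values, of which 92 were no longer past the threshold and 20 were newly past it. Rows that an alternative removed, as the higher floors did with many, gave no value and are not in these counts. The 86 rows also include the TTP family and rows just under the threshold, which were not past it at the start. The counts are therefore no measure of how stable the rule is. FPKM holds no counts, so the precision of low values is unknown.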
